A study of Homo sapiens with 4 samples.

Results

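Genes named LINC followed by a number are long intergenic non-coding RNA genes that have no function-based name. In the nascent RNA libraries described here, 2266 symbols of this form were listed and 302 of them, chosen by their mean level over the 4 libraries, are described below. The minimum was a mean of 1 CPM, the reads of a gene scaled to the library total. The 4 libraries were made by TTchem-seq, in which a short pulse of 4-thiouridine marks newly made RNA that is then fragmented, purified and sequenced. All came from HCT116, an established human colorectal carcinoma line, arrested in G1 by 28 h of palbociclib at 2 µM, which blocks the kinases CDK4 and CDK6, before a 4-thiouridine pulse of 30 min at 1 mM. The DKO group of 2 libraries is labelled as a double knockout of TOP2A and TOP2B. Per the labels' protocols, its cells are TOP2A mAID/TOP2B -/-, so TOP2B is deleted and TOP2A protein is removed by 500 µM auxin given for 8 h. The WT group of 2 libraries is labelled wildtype. The only other HCT116 line that the treatment text names is TOP2A mAID, and auxin is recorded for DKO cells only. Loss of the enzymes, auxin and any difference between the cell lines therefore separate the groups together and cannot be told apart.

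Long non-coding RNAs are transcribed by RNA polymerase II, and most are capped, spliced and made at low levels. Some act in trans after release, others act on nearby genes, and for some the act of transcription or an enhancer within the locus matters more than the RNA. Many are unstable, so that a pulse label captures them better than steady-state RNA does. Type II topoisomerases pass one DNA duplex through another and relieve the supercoils that moving polymerases leave behind.

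Counted reads were 53000795 and 53777749 in DKO and 51718468 and 51142867 in WT, and the lowest correlation of log2 CPM between replicates of a group was 0.9988. TOP2A RNA stood at 165 and 167 CPM in DKO and 126 and 122 CPM in WT, and TOP2B RNA at 148 and 149 against 140 and 143 CPM, so the labels could not be checked with these counts. Of 12 colorectal epithelial markers 7 were tested, with 4 lower and none higher in DKO, and their summed level was 446 and 426 CPM in DKO and 504 and 469 CPM in WT. CDX1, KRT20, LGR5, MUC2 and VIL1 of that list were under 1 CPM. Neuronal markers summed to 529 and 595 CPM in DKO and 138 and 142 CPM in WT, with 3 of 6 tested higher and most of the reads from SYT1. ELAVL4, RBFOX3 and TUBB3 were under 1 CPM. Mesenchymal markers summed to 104 and 112 against 56.8 and 57.4 CPM, with 3 of 5 tested higher, and most of that sum was ZEB1, at 91.9 and 99.1 against 50.2 and 50.9 CPM. VIM, FN1 and COL3A1 were under 1 CPM. All immune and endothelial markers were under 1 CPM. The part of these marker differences in the values below was not tested, and more cells of a kind and more RNA per cell cannot be told apart.

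Starts of 4 of the genes with large differences are shown first, because the promoter is the nearest thing to a regulatory sequence that the annotation gives for them. Each runs from 250 bases before to 50 bases after the annotated start, 5′ to 3′ on the gene's strand (RefSeq, GRCh38.p14), and capitals mark each match on either strand to 5 motifs. TATAAA is the TATA box. The GC box that Sp1 binds is GGGCGG. The CCAAT box is read as CCAAT alone. The AP-1 site is TGACTCA. The core of the element that the aryl hydrocarbon receptor binds is GCGTG. Neighbouring matches can overlap, such as a CCAAT with the next match on the other strand. LINC01117 and LINC00299 were higher in DKO, and LINC00640 and LINC01630 were lower.
LINC01117: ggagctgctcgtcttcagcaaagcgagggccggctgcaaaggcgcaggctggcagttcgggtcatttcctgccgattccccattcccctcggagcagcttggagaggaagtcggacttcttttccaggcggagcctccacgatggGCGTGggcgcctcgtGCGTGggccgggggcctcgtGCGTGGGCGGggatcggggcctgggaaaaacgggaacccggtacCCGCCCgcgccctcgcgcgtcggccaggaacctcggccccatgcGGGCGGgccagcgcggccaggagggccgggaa
LINC00299: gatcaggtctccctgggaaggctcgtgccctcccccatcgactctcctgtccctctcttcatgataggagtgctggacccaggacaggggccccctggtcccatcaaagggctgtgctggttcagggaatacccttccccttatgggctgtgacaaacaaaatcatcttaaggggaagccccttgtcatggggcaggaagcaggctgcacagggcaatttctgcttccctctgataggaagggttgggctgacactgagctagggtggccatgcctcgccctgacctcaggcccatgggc
LINC00640: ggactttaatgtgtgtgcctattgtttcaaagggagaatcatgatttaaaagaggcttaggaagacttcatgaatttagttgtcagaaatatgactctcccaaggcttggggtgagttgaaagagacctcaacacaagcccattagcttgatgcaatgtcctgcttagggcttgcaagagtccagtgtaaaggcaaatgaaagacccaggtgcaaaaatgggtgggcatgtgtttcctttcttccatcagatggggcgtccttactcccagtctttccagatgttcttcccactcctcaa
LINC01630: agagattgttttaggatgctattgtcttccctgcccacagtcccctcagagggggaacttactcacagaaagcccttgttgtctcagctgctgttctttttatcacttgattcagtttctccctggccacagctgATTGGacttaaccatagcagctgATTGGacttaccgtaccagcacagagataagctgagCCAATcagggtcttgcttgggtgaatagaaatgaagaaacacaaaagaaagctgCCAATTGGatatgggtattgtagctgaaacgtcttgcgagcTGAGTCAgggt
The windows are chr2:176637504-176637803 on the plus strand, chr2:8328370-8328669 on the minus strand, chr14:51333143-51333442 on the plus strand and chr18:51391792-51392091 on the plus strand. LINC01117 starts in a CpG-rich stretch, with 34 CpG and 71% G and C, and holds 3 matches each to GGGCGG and GCGTG. LINC00640 has 1 CpG and 44.7% G and C, and none of the 5 motifs. LINC01630 holds 5 matches to CCAAT and 1 to TGACTCA, and LINC00299 holds no match. A match is a string of letters and not a measured site.

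In DKO, 101 of the 302 LINC genes were higher than in WT and 55 lower, and 146 were not called. Calls are at an adjusted p under 0.05 by edgeR's quasi-likelihood test, with Benjamini-Hochberg correction over all 19103 tested genes, and every adjusted p below is from that test. In all 51.7% were called, 33.4% higher and 18.2% lower. Among all 14536 tested genes that reach the same mean of 1 CPM 46.6% were called, 21% higher and 25.6% lower. Among all tested genes 40.1% were called, 19% higher and 21.1% lower. The median log2 fold change of the LINC genes was 0.08, with the middle 50% between -0.15 and 0.38, beside a median of -0.02 for genes of at least 1 CPM. Most differences were modest, the median size of the log2 fold change being 0.50 among called LINC genes. Beyond 2-fold, 10 were higher and 10 lower. Beyond 4-fold, 3 were lower and none higher, while 73 of all genes of at least 1 CPM were more than 4-fold higher and 14 lower. The labels do not say that replicates were separate cultures, so p-values measure only the spread between these libraries. With either WT library left out, far fewer genes were called. The share of LINC genes called higher then stood less far above that of all genes of at least 1 CPM. When WT replicate 1 was dropped, the median log2 fold change was 0.06 for LINC genes and -0.02 for all genes of at least 1 CPM. Dropping WT replicate 2 instead gave medians of 0.10 and -0.03.

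**Figure D1:**
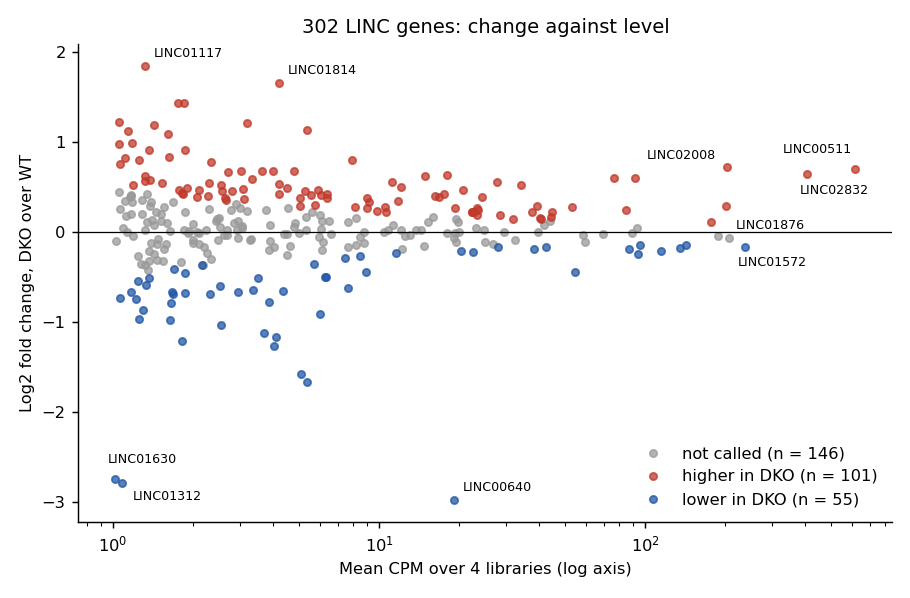
Each point is 1 of the 302 LINC genes, with its mean CPM over the 4 libraries on a log axis and its log2 fold change (DKO over WT) on the vertical axis, coloured by call. Red points (101, higher) outnumber blue points (55, lower), and the 3 genes more than 4-fold lower stand apart at the bottom.

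As a group these genes took a larger share of reads in DKO, 0.608% and 0.616%, than in WT, 0.541% and 0.547%. Much of that difference lay in a few genes. The 5 with most reads held 31% and 32.2% of all LINC reads in DKO and 25.7% and 25.8% in WT. Without them the shares were 0.419% and 0.418% in DKO and 0.402% and 0.406% in WT, so the DKO libraries were still above both WT libraries by a small margin. Libraries of the groups did not overlap for 225 of the 302 genes (74.5%), beside 72.4% of all tested genes of at least 1 CPM. Only LINC00342 and LINC02935 were called although their groups overlapped, and these were picked after their values were seen.

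Direction was split differently at different levels. Of 88 LINC genes with a mean of at least 10 CPM, 38 were higher and 15 lower (43.2% and 17%, beside 21.9% and 27.6% of all genes of that level). From 2 to under 10 CPM, 39 of 121 were higher and 22 lower, beside 19.5% and 25.3% of genes. From 1 to under 2 CPM, 24 of 93 were higher and 18 lower, beside 19% and 13.9% of genes. Membership itself favours differences near the minimum, because a gene under 1 CPM in a single group enters only through the other. There were 16 LINC genes under 1 CPM in WT only, 13 of them called higher, and 8 under 1 CPM in DKO only, 7 of them called lower. With at least 1 CPM in each group, 88 of 278 were higher and 48 lower, beyond 2-fold 4 were higher and 8 lower, and beyond 4-fold 1 was lower. The other 6 rises beyond 2-fold, and the falls of LINC01312 and LINC01630, were thus in genes that entered only through the group where they are high. Just inside the minimum lay LINC01630 (mean 1.0154 CPM), LINC01543 (1.0303) and LINC00616 (1.0465), and just outside it LINC00575 (0.9983), LINC01169 (0.9971) and LINC02562 (0.9868).

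The largest fall was that of LINC00640, on chromosome 14 from 51333393 to 51365557. It stood at 4.32 and 4.24 CPM in the DKO libraries and at 33.7 and 34.2 CPM in the WT libraries. The replicates lay close together and far from the other group, 7.92-fold apart (log2 fold change -2.98 ± 0.08 SE, adjusted p = 9.12e-86). Its nearest protein-coding gene, FRMD6, which encodes a protein of the Hippo pathway, starts 30.9 kb downstream on the same strand and was higher in DKO (0.41, adjusted p = 1.18e-11). On the other side TMX1 was slightly higher (0.18) and TRIM9, 238 kb away, was lower (-0.63, adjusted p = 1.33e-12), so the nearest gene on each side differed in the direction opposite to LINC00640.

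LINC01312 and LINC01630 were above 1 CPM in both WT libraries and well under it in both DKO libraries. LINC01312, on chromosome 6 from 133821147 to 133853992, stood at 0.321 and 0.223 CPM in DKO and 1.88 and 1.92 in WT (6.91-fold lower, log2 -2.79 ± 0.25, adjusted p = 8.43e-21). It lies inside TARID on the other strand, a long RNA known to direct demethylation of the TCF21 promoter. TARID stood at 84.7 and 88.2 CPM in DKO and 196 and 197 in WT, a log2 fold change of -1.18 (adjusted p = 4.70e-60). The strand setting of the counting is not given in the sources used here, so reads of this antisense pair cannot be told apart with certainty. TCF21 itself, 35.1 kb away, had a log2 fold change of 0.11 (adjusted p = 0.598), and SGK1, a kinase gene 315 kb away, was higher (1.22, adjusted p = 5.20e-22). LINC01630, on chromosome 18 from 51392042 to 51562469, stood at 0.245 and 0.279 CPM in DKO and 1.89 and 1.64 in WT (6.68-fold lower, -2.74 ± 0.26, adjusted p = 1.67e-19). Its nearest protein-coding gene, MEX3C, 194 kb away and encoding an RNA-binding ubiquitin ligase, was higher (0.42, adjusted p = 1.73e-13).

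The next falls were between 2- and 4-fold. LINC01405, which RefSeq lists as VHRT on chromosome 12 from 110936602 to 110937448, stood at 2.53 and 2.58 CPM in DKO and 7.97 and 8.27 in WT (3.16-fold, -1.66 ± 0.12, adjusted p = 3.02e-30). It lies 15.2 kb from MYL2, a gene of cardiac muscle myosin whose log2 fold change was 0.08. LINC02653 stood at 2.47 and 2.6 CPM in DKO and 7.41 and 7.78 in WT (2.98-fold, -1.58 ± 0.12). HTR7, a serotonin receptor gene 200 kb away, was lower as well (-0.52, adjusted p = 3.80e-20). LINC02653 shares chromosome 10 with LINC01374 (2.32 and 2.73 against 5.53 and 5.81 CPM, -1.16 ± 0.12) and LINC02652 (1.06 and 1.13 against 2.53 and 2.56 CPM, -1.21 ± 0.17). LINC01374 and LINC02653 lie within 500 kb of each other, while LINC02652 lies far from both. KIF20B, a mitotic kinesin gene near LINC01374, had a log2 fold change of 0.11 and WAC near LINC02652 one of 0.02. LINC02732 on chromosome 11 (2.15 and 2.57 against 5.49 and 5.85 CPM, -1.26 ± 0.13) and LINC01290 on chromosome 16 (2.09 and 2.55 against 4.97 and 5.14 CPM, -1.12 ± 0.13) completed the falls of this size outside chromosome 20. LINC01290 lies 0.224 kb from EMP2, a membrane protein gene with a log2 fold change of -0.10 (adjusted p = 0.162). The 10 largest falls kept their calls in all 10 alternative fits.

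**Figure D2:**
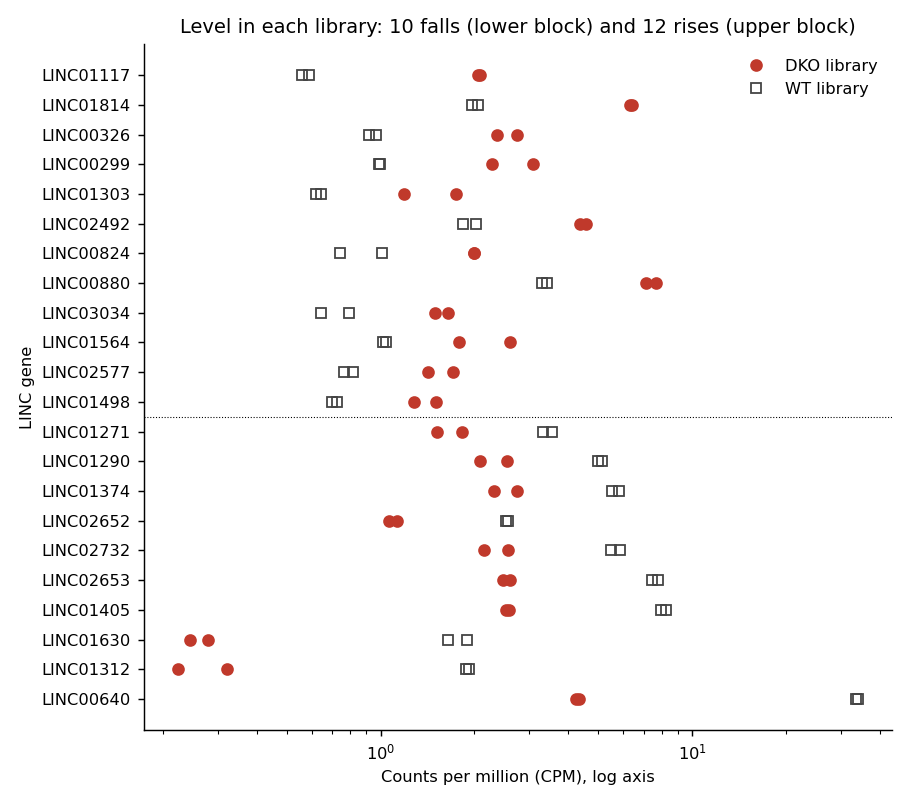
CPM in each of the 4 libraries on a log axis for the 12 LINC genes with the largest rises (upper block) and the 10 with the largest falls (lower block), red circles for DKO and open squares for WT. In every row the DKO libraries lie on one side of the WT libraries, by the widest margin in LINC00640.

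Among rises, LINC01117 was first, on chromosome 2 from 176637754 to 176655958. It stood at 2.09 and 2.05 CPM in DKO and 0.561 and 0.587 in WT (3.61-fold, 1.85 ± 0.21, adjusted p = 1.32e-14). With a WT mean under 1 CPM, LINC01117 entered the set only through DKO, where it is high. MTX2, a gene of mitochondrial protein import 299.7 kb away, had a log2 fold change of 0.04. LINC00326 on chromosome 6 stood at 2.75 and 2.36 CPM in DKO and 0.967 and 0.919 in WT (2.71-fold, 1.44 ± 0.18, adjusted p = 1.58e-12). It lies 134 kb from EYA4, a transcriptional coactivator gene that was under 1 CPM and lower in DKO (-0.92, adjusted p = 0.0364). EYA4 lost that call with any library left out. LINC00326 and LINC01312 lie less than 1 Mb apart, so a rise and a fall of over 2-fold were found in the same stretch of chromosome 6. Each entered the set only through the group where it is high, so the minimum of 1 CPM favoured both differences.

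Another 7 rises, from 1.97-fold to 2.33-fold, were in genes with few reads. Of these, LINC00824, LINC03034, LINC01303, LINC02577 and LINC01498 had a WT mean under 1 CPM. They entered the set only through DKO, where they are high, so the minimum favoured their rises. LINC02492 on chromosome 4 stood at 4.36 and 4.56 CPM in DKO and 2.03 and 1.84 in WT (1.21 ± 0.14, adjusted p = 1.69e-14). LINC00824, in the gene-poor stretch of chromosome 8 beyond MYC, stood at 2 and 1.99 against 1.01 and 0.743 CPM (1.19 ± 0.19, adjusted p = 4.24e-08). MYC, 662 kb away, was slightly higher (0.30) and PVT1, a long RNA between them, slightly lower (-0.28). LINC03034 on chromosome 15 stood at 1.64 and 1.49 against 0.793 and 0.645 CPM (1.12 ± 0.21, adjusted p = 2.77e-06), 96 kb from the Krüppel-like factor gene KLF13 (0.16). LINC01303 on chromosome 14 lies 5.3 kb from PRKCH, a protein kinase C gene that was higher (0.26), and stood at 1.75 and 1.19 against 0.619 and 0.645 CPM (1.22 ± 0.22, adjusted p = 1.30e-06). LINC01564 on chromosome 6 (2.6 and 1.79 against 1.04 and 1.02 CPM, 1.09 ± 0.18), LINC02577 on chromosome 7 (1.42 and 1.71 against 0.812 and 0.763 CPM, 0.99 ± 0.21) and LINC01498 on chromosome 12 (1.51 and 1.28 against 0.696 and 0.723 CPM, 0.98 ± 0.22) were the last of the 12. KLHL31, 16.5 kb from LINC01564, was higher too (0.51), while PRKAR2B near LINC02577 (0.00) and FICD near LINC01498 (-0.18) were not called. Several of these calls were lost under another setting. With no filter beyond 1 read in all, LINC01303 (adjusted p = 0.06) and LINC01564 (0.0639) missed the threshold. Without WT replicate 1, LINC01303 (adjusted p = 0.102), LINC01564 (0.0987), LINC02577 (0.0724) and LINC01498 (0.0755) missed the threshold, and without WT replicate 2, LINC01303 (0.0668), LINC01564 (0.0721) and LINC02577 (0.0586).

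LINC01814 and LINC00299 rose in 1 neighbourhood, beside ID2 on chromosome 2. ID2 encodes an inhibitor of helix-loop-helix transcription factors. LINC01814, from 8559833 to 8583792, stood at 6.3 and 6.42 CPM in DKO and 1.97 and 2.05 in WT (3.17-fold, 1.66 ± 0.13, adjusted p = 1.34e-26). LINC00299, from 8007771 to 8328419 on the minus strand, stood at 2.28 and 3.09 against 0.986 and 0.997 CPM (2.71-fold, 1.44 ± 0.18, adjusted p = 9.13e-13). Its WT mean was under 1 CPM, so LINC00299 entered the set only through DKO. ID2 lies 98.3 kb from LINC01814 and stood at 55.8 and 49.5 against 43.2 and 43.7 CPM (0.28, adjusted p = 4.97e-06). Its antisense gene ID2-AS1 (0.52) and MBOAT2 (0.24) were higher, and KIDINS220 (0.03, adjusted p = 0.72) was not called. Without WT replicate 1, LINC00299 (adjusted p = 0.056), ID2 (0.118) and ID2-AS1 (0.0879) missed the threshold, and ID2 also without WT replicate 2 (0.0766).

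A second neighbourhood with several higher LINC genes lay on chromosome 3, around TIPARP, LEKR1 and CCNL1. TIPARP encodes a mono-ADP-ribosyltransferase induced by the aryl hydrocarbon receptor, and CCNL1 encodes cyclin L1. LINC00880, from 157081667 to 157123002, stood at 7.66 and 7.12 CPM in DKO and 3.29 and 3.42 in WT (2.21-fold, 1.14 ± 0.11, adjusted p = 3.75e-18). LINC00886 stood at 112 and 108 against 74.2 and 71.4 CPM (0.60 ± 0.05, adjusted p = 7.39e-25), and LINC00881, which overlaps LINC00880, at 1.64 and 1.54 against 1.02 and 0.802 CPM (0.80 ± 0.20, adjusted p = 0.000438). These LINC genes were all higher, as were LEKR1 (0.65) and, more weakly, CCNL1 (0.24). LINC00881 had a WT mean under 1 CPM and entered the set only through DKO, where it is high. TIPARP stood at 547 and 526 CPM in DKO and 205 and 196 in WT (log2 fold change 1.42). VEPH1, 137 kb on the far side, was lower (-0.20, adjusted p = 0.00791). With WT replicate 1 or WT replicate 2 left out, LINC00881 was not called (adjusted p = 0.0528 and 0.0848), and CCNL1 likewise (0.0508 and 0.0988).

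**Figure D3:**
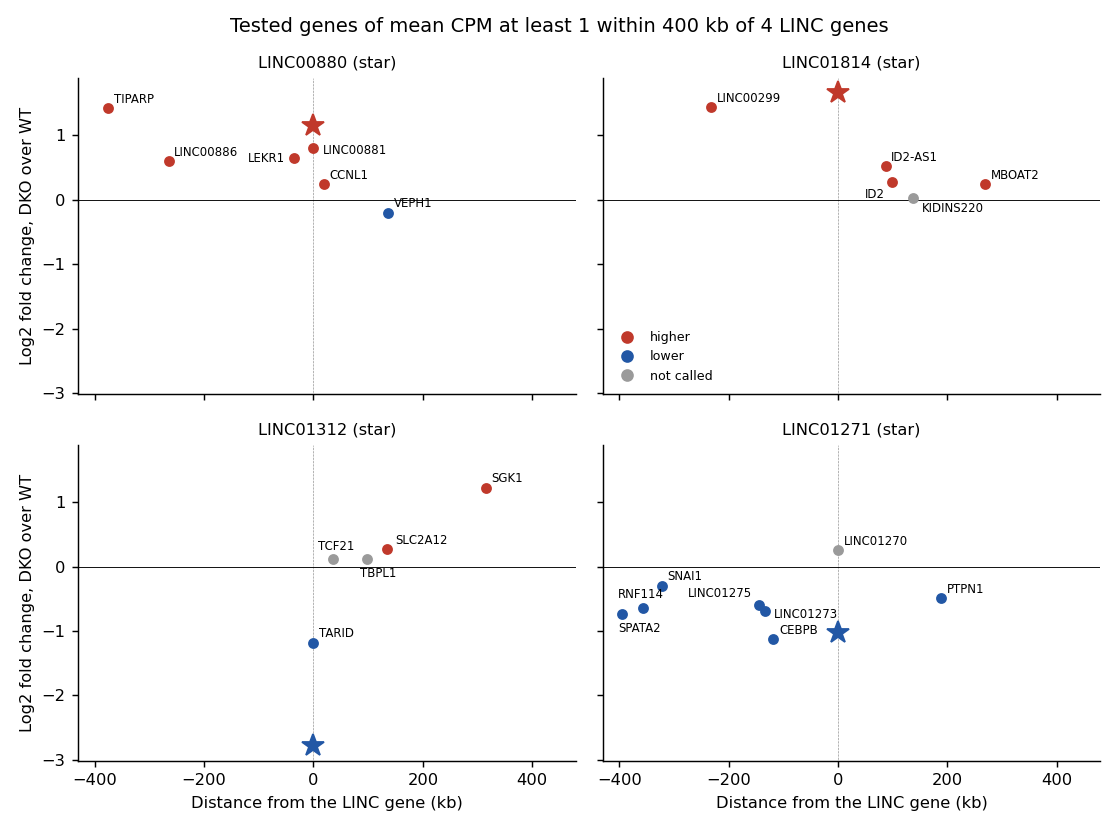
Log2 fold change (DKO over WT) of tested genes with a mean of at least 1 CPM, against their distance in kb from LINC00880, LINC01814, LINC01312 and LINC01271 (stars), with negative distances towards lower coordinates. The first pair of panels holds mostly higher genes, the LINC01312 panel both directions, and the LINC01271 panel mostly lower genes.

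By reads, 5 LINC genes led, and levels between them are compared per kb of RefSeq span. LINC02832, on chromosome 2 from 219729993 to 219737928, had the highest level per length of the 5, at a mean of 50.9 CPM per kb. It stood at 489 and 499 CPM in DKO and 321 and 309 in WT (1.57-fold, 0.65 ± 0.05, adjusted p = 3.91e-27). LINC00511, on chromosome 17 from 72598041 to 72640472, has been studied as a tumour-promoting RNA and had 14.5 CPM per kb. It stood at 734 and 791 against 467 and 476 CPM (1.62-fold, 0.70 ± 0.05, adjusted p = 5.03e-28). LINC02008, with a span of 478 kb and 0.426 CPM per kb, stood at 250 and 256 against 153 and 154 CPM (1.65-fold, 0.73 ± 0.05, adjusted p = 1.57e-33). In these 3 genes the DKO libraries were well above the WT libraries, while their nearest protein-coding genes differed by less or the other way, with SLC4A3 near LINC02832 lower (-0.52), SLC39A11 near LINC00511 at 0.08 (adjusted p = 0.216) and GBE1 near LINC02008 slightly higher (0.16).

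The other two of the 5 changed little. LINC01876, at 0.88 CPM per kb, stood at 192.5 and 210.4 CPM in DKO and 210.3 and 212 in WT (-0.06 ± 0.05, adjusted p = 0.295), and its nearest protein-coding gene NR4A2, a nuclear receptor gene, was higher (0.74). Without DKO replicate 2, LINC01876 was called lower (-0.14, adjusted p = 0.0238), and without DKO replicate 1 its value was 0.01. LINC01572, at 0.615 CPM per kb over 384 kb, stood at 221 and 225 against 238 and 260.2 CPM (-0.16 ± 0.05, adjusted p = 0.00461). That call was lost with upper quartile factors (adjusted p = 0.0545) and without WT replicate 1 (0.0769) or WT replicate 2 (-0.09, adjusted p = 0.307).

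By chromosome, higher LINC genes outnumbered lower ones on 16 of 23 chromosomes, lower ones were more on 4, and the counts were equal on 3. For all tested genes of at least 1 CPM, higher outnumbered lower on chromosomes 2 to 6, 8, 10, 13, 15, 18 and 21. On the others lower ones were more, except on X, where the shares were equal. The LINC median was above the median of all tested genes of at least 1 CPM on 17 chromosomes. Chromosome 6 had 8 of 13 LINC genes higher and 1 lower (median 0.29, beside 0.03 for its genes, of which 29.4% were higher and 18.5% lower). Chromosome 13 had 6 of 15 higher and 1 lower (median 0.29, beside 0.04 for genes, 28.7% higher and 17.2% lower). Chromosome 3 had 7 of 19 higher and 1 lower (0.12 beside 0.00, with 24.8% and 22% of genes). Chromosome 8 had 5 of 8 higher and 1 lower (0.33 beside 0.02, with 29.2% and 20.3% of genes). These 4 chromosomes had a single lower LINC gene each, as did chromosome 7. So did chromosomes 9 (of 8), 11 (of 10) and 14 (of 9), where 29.2%, 25.5% and 23.5% of genes were lower. Chromosomes 15 (8 LINC genes) and 21 (6) had none, beside 19.6% and 14.2% of their genes. Chromosome 7 had 6 of 12 higher (0.14 beside -0.03, with 23.4% and 25% of genes). Chromosome 1 had 11 of 29 higher and 5 lower (0.13 beside -0.02, with 21% and 25.8% of genes). On chromosome 2, which held the most LINC genes, 9 of 33 were higher and 5 lower (0.03 beside 0.02, with 26.4% and 18.6% of genes). Lower genes were more on chromosomes 4, 5, 10 and 20. Chromosome 4 had 3 of 17 higher and 5 lower (0.00 beside 0.07, with 37.1% and 16.1% of genes). Chromosome 5 went the same way, with 2 of 14 higher and 5 lower (-0.04 beside 0.02, with 25.6% and 20.5% of genes), as did chromosome 10, with 2 of 14 higher and 4 lower (25.3% and 21.5% of genes). The number per chromosome was small, from 6 to 33, so single genes move these medians.

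**Figure D4:**
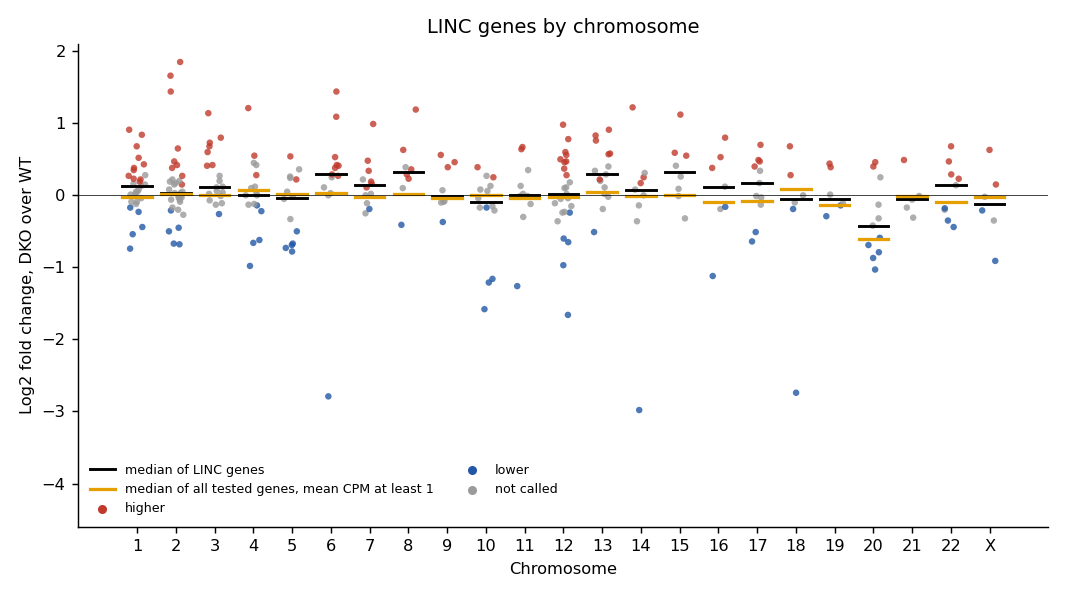
Log2 fold change (DKO over WT) of each LINC gene by chromosome, coloured by call, with the median of the LINC genes (black line) and of all tested genes of mean CPM at least 1 (orange line). The orange line lies near 0 on most chromosomes and at -0.61 on chromosome 20, where the LINC median is -0.42.

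Chromosome 20 stood apart in all genes, since 90.1% of its 353 tested genes of at least 1 CPM were lower in DKO and 2.55% higher, with a median log2 fold change of -0.61. Its 11 LINC genes had 5 lower, 2 higher and 4 not called (median -0.42), and their summed level was 19.6 and 19.7 CPM in DKO and 23 and 23.3 CPM in WT. With at least 1 CPM in each group 4 were lower, since LINC00659 was under 1 CPM in DKO and entered only through WT. LINC01271, from 50310711 to 50321342, fell most, at 1.83 and 1.52 CPM in DKO and 3.33 and 3.54 in WT (-1.03 ± 0.15, adjusted p = 9.14e-10). Its nearest protein-coding gene CEBPB, a transcription factor gene 118 kb away, stood at 5.25 and 4.78 against 11.1 and 11 CPM (-1.13 ± 0.10). LINC01273 (1.21 and 1.36 against 2.11 and 2.03 CPM, -0.69 ± 0.17) and LINC01275 (0.906 and 1.21 against 1.76 and 1.43 CPM, -0.59 ± 0.19) lie beyond CEBPB and were lower too. LINC01270 overlaps LINC01271 on the other strand and stood at 3.98 and 4.17 CPM in DKO and 3.52 and 3.34 in WT (0.25, adjusted p = 0.0974). Whether the counting used strand is not given in the sources used here, so reads of this overlapping pair cannot be told apart.

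Elsewhere on the chromosome, LINC00659 (0.887 and 0.948 against 1.97 and 1.39 CPM, -0.87 ± 0.20) and LINC00654 (1.15 and 1.26 against 1.89 and 2.31 CPM, -0.79 ± 0.18) were lower. Their nearest protein-coding genes NTSR1 (-0.54) and GPCPD1 (-0.51) were lower as well. LINC01429 (-0.42, adjusted p = 0.0682), LINC01433 (-0.32, adjusted p = 0.169) and LINC01730 (-0.13, adjusted p = 0.603) did not pass the test, while SALL4 (-1.31), SMOX (-0.57) and CDC25B (-0.61) beside them were lower. Against the chromosome's trend, LINC01524 (3.04 and 2.9 against 1.93 and 2.39 CPM, 0.46 ± 0.15, adjusted p = 0.00619) and LINC01722 (2.83 and 2.36 against 1.86 and 2.07 CPM, 0.40 ± 0.15, adjusted p = 0.0247) were higher. TSHZ2 near LINC01524 had 0.14 and TASP1 near LINC01722 -0.66. Most of these genes have few reads, and calls were lost as libraries were left out. Without WT replicate 1, LINC00659 (-0.60, adjusted p = 0.122), LINC01273 (0.0869), LINC01275 (0.303), LINC01722 (0.285) and LINC01524 (0.198) missed the threshold, and 2 of the 11 remained lower by the test. Without WT replicate 2 the same number were lower, with LINC00654 (0.0719), LINC01273 (0.0563), LINC01275 (0.0954) and LINC01722 (0.131) not called. By the Wald test of DESeq2, LINC01524 (adjusted p = 0.106), LINC01722 (0.196) and LINC01275 (0.167) were not called. With no filter beyond 1 read they were not called either (0.114, 0.161 and 0.169), nor were LINC00659 (0.0904) and LINC00654 (0.0505). Without DKO replicate 1, LINC01275 had -0.38 (adjusted p = 0.192) and LINC01722 0.28 (adjusted p = 0.248). Off chromosome 20, 99 of 291 LINC genes were higher (34%) and 50 lower (17.2%), with a median of 0.10. Among all tested genes of at least 1 CPM, chromosome 20 included, 21% were higher and 25.6% lower. The share of all genes without that chromosome was not counted.

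A RefSeq position was found for 296 of the 302, and each was set beside its nearest tested protein-coding gene. The median distance, edge to edge, was 37.5 kb, beside 4.13 kb between protein-coding genes. Of the 99 placed LINC genes that were higher, the neighbour was higher in 42 cases, lower in 11 and not called in 46. Of the 55 that were lower, it was lower in 18, higher in 7 and not called in 30. Where both were called, 60 of 78 pairs (76.9%) had the same direction, and for protein-coding genes and their own nearest protein-coding genes it was 1996 of 2666 (74.9%). Of 2407 higher protein-coding genes the neighbour was higher for 809, and of 3161 lower ones it was lower for 1187. Where both were called, LINC genes matched their neighbours about as often as protein-coding genes did. With WT replicate 1 left out the same-direction pairs numbered 5, and with WT replicate 2 left out 7. Across genes, Spearman's rho of the 2 log2 fold changes was 0.29 for both sets, a description over pairs that share their libraries and chromosomes.

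The pairs were also counted by distance. Within 10 kb without overlap, all 11 pairs with both called had the same direction (843 of 1073, or 78.6%, for protein-coding pairs). From over 10 to 100 kb it was 27 of 34 (79.4%, beside 72.6%), and beyond 100 kb 22 of 33 (66.7%, beside 72.5%). None of the 10 overlapping pairs had both called. The close pairs, picked after their values were seen, include LINC01135, which RefSeq lists as JUN-DT, divergent from the AP-1 gene JUN at 1.1 kb. It stood at 7.6 and 6.97 CPM in DKO and 5.22 and 5.59 in WT (0.43 ± 0.10, adjusted p = 0.00024), and JUN was higher (0.52). LINC00592, 9.36 kb from the keratin gene KRT7, stood at 3.72 and 3.09 against 5.78 and 4.91 CPM (-0.65 ± 0.12, adjusted p = 1.59e-06), and KRT7 was lower (-0.94). LINC02980 lies 1.44 kb downstream of TRIM38 on the same strand and was higher by less (0.27 ± 0.09) than TRIM38 (1.14). By orientation, where the strand was known, same-strand LINC genes downstream of their neighbour had 11 of 14 pairs in the same direction, divergent ones 7 of 10 and convergent ones 6 of 7. Whether reads running past the end of a gene were counted for the next one was not tested.

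**Figure D5:**
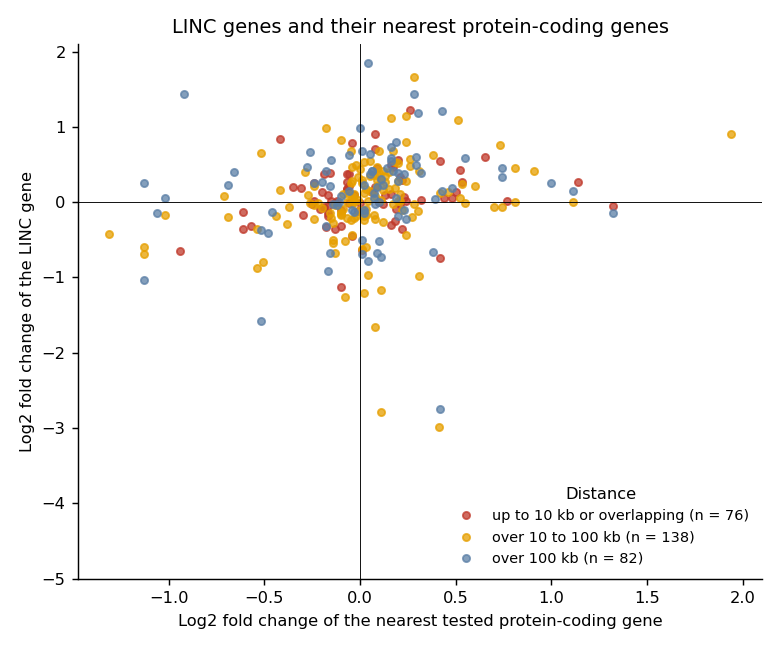
Log2 fold change of each of 296 LINC genes against that of its nearest tested protein-coding gene, coloured by distance. Most points lie within 1 log2 unit of 0 on both axes, with a loose lean along the diagonal (Spearman's rho 0.29), and LINC00640, LINC01312 and LINC01630 lie far below their neighbours.

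The LINC genes were also described by length. Their median RefSeq span was 23 kb, from 0.561 to 505 kb. Under 10 kb, 26 of 94 LINC genes were higher and 12 lower, beside 12.7% higher and 30.8% lower of all genes of that span. From 10 to under 100 kb it was 52 and 31 of 147, beside 18.4% and 27.5%. At 100 kb and over it was 21 and 12 of 55, beside 37% and 19.3%. Medians over these bins were 0.02, 0.08 and 0.08 for LINC genes and -0.10, -0.03 and 0.06 for all genes. Spearman's rho between span and log2 fold change was 0.08 over LINC genes and 0.23 over all tested genes of at least 1 CPM, as a description across genes that are not independent.

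A promoter sequence and strand were found for 196 LINC genes. Their windows of the kind printed above held a median of 7.5 CpG, beside 27 for protein-coding genes of at least 1 CPM and 14 for all 27305 promoters. TATAAA was in 16.3% of LINC promoters, 5.57% of those protein-coding promoters and 12% of all. GGGCGG was in 37.8%, 71.3% and 44.6%, CCAAT in 39.8%, 36.9% and 35.7%, TGACTCA in 7.14%, 2.89% and 4.92%, and GCGTG in 35.7%, 51% and 36.3%. LINC starts were thus poorer in CpG and GC boxes and more often held a TATA box letter string than those of protein-coding genes. Between higher and lower LINC genes the counts were small, with GCGTG in 22 of 64 higher (34.4%), 6 of 29 lower (20.7%) and 40.8% of those not called, and the median CpG count at 5.5, 5 and 11.

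Overlap with other genes bears on these counts. Of the 296 placed LINC genes 111 overlapped another listed gene. In the whole table, 45.3% of protein-coding genes that lie wholly inside another listed gene had no read in any library, against 11.8% of others. For LINC symbols it was 36.3% against 26.4%. How the counting treated reads in overlaps was not tested. A LINC gene at 0 is therefore not shown to be silent.

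Neighbouring LINC genes were set beside each other as well. There were 39 neighbouring pairs of the 302 within 500 kb of each other, and in 13 both were called, 7 with both higher, 3 with both lower and 3 opposite. For protein-coding genes and their nearest protein-coding genes, at any distance, 74.9% of pairs with both called had the same direction. Neighbouring pairs of all genes within 500 kb were not counted, so LINC pairs are not shown to match more often. The opposite pairs, picked after their values were seen, were LINC01833 (0.38) with LINC01121 (-0.67), LINC02885 (0.23) with LINC01399 (-0.18), and LINC01204 (-0.91) with LINC02595 (0.15).

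Long non-coding RNA genes with names of their own gave a mixed picture. Of 39 listed, 26 were tested, with 7 higher, 7 lower and 12 not called (median 0.10). MIR31HG, the host gene of miR-31, stood at 1467.2 and 1527.7 CPM in DKO and 1052.6 and 952.4 in WT (0.58 ± 0.06, adjusted p = 2.46e-19). LUCAT1 stood at 7.51 and 7.2 against 4.54 and 4.11 CPM (0.77 ± 0.11, adjusted p = 3.12e-10), and HOTAIR of the HOXC cluster, under 1 CPM, had 1.67 ± 0.44 (adjusted p = 0.001). MIR100HG, MIR22HG, MALAT1 and GAS5 were higher by less. NORAD, which binds PUMILIO proteins, stood at 75.3 and 67.7 against 117 and 118 CPM (-0.72 ± 0.05, adjusted p = 5.22e-32), and ZFAS1, a snoRNA host gene, was lower by 0.46 on the log2 scale. Both are on chromosome 20. KCNQ1OT1, the imprinted antisense RNA of KCNQ1, stood at 73.8 and 71.5 against 107 and 106 CPM (-0.54 ± 0.05, adjusted p = 1.84e-21). PVT1, FIRRE, JPX and TUG1 were lower by less.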

How the data were processed

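Nascent RNA was measured in 4 TTchem-seq libraries, 2 DKO and 2 WT, grouped by title. Each deposited file holds the authors' unnormalised counts of reads for every Ensembl gene of a single library. Tools named in the submitters' processing notes are STAR 2.7.3a and featureCounts 1.6, on build hg38. Not given in the sources used here are the gene set, the strand setting and whether exons or whole genes were counted. Values are relative to each library's total, and no spike-in values were used. Per the labels' protocols, 66 ng of labelled RNA entered a stranded kit and reads were single, of 75 bp.

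Each file lists 60656 IDs, of which 42020 had a symbol in a gene name table and 40240 a position in RefSeq GRCh38.p14, the same build. Of the 302 LINC genes, 5 were placed through a synonym and 6 could not be placed. Total counts were 51142867 to 53777749, so 1 CPM is about 50 reads and counting error is large near the minimum. CPM uses library totals. Groups were compared by the quasi-likelihood method of edgeR 4.0.16 (R 4.3.3) with TMM factors and filterByExpr (default settings, 10 reads as minimum count and 15 in total), Benjamini-Hochberg over 19103 genes. The SE of a log2 fold change is its absolute value over the square root of F. The spread is pooled over genes, so an SE can be too small for a gene whose replicates disagree. Counts for DKO against WT were simulated over 18802 genes, with 50 genes changed at each size. Recovered were 56% of those changed 1.25-fold, 96% at 1.5-fold and 100% at 2- or 3-fold, and 2 of 18602 unchanged genes were called. The simulation gave all genes the same spread. It drew changed genes from all levels of at least 1 CPM, where the median was 22.4 CPM, beside 3.88 CPM for LINC genes. Recovery of LINC genes themselves was therefore not measured.

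The members and lists were chosen with earlier results of these data known. LINC02331 was left out by the rule that defines the genes. Named were the 12 largest rises and 10 largest falls among called LINC genes, the 5 with most reads, those on chromosome 20, 3 on each side of the CPM minimum, the nearest tested protein-coding genes of these, and called genes of a list of other long non-coding RNAs (CCAT1 of that list was not found). Neighbours in 4 loci, and genes said to be picked after their values were seen, are named beyond that rule. Alternatives were DESeq2 1.42.0 size factors, library totals and upper quartile factors, no count filter beyond 1 read, the Wald test of DESeq2, the replicate number as a block, each library left out in turn, other CPM minimums, and only pairs that do not overlap. Figures were drawn with matplotlib 3.10.9.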

Additional observations from a re-analysis of the deposited data

How the results depend on the processing

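With no count filter beyond 1 read, 39 LINC genes were higher and 24 lower, 1640 and 1655 of all genes, 2 LINC genes on chromosome 20 were lower and 7 pairs matched their neighbour's direction. With the Wald test of DESeq2 the counts were 66 and 35 LINC genes, 2479 and 2524 of all genes and 33 matching pairs. With a mean of at least 2 CPM, 1 LINC gene on chromosome 20 was lower and 39 pairs matched. The LINC median was 0.12 with upper quartile factors, which moved the median of all genes from -0.006 to 0.028, and 0.07 with at least 1 CPM in each group. With 1 library left out at a time, LINC genes higher ranged from 25 to 87 and lower from 16 to 48, their median from 0.06 to 0.10, all genes higher from 1023 to 3127 and lower from 928 to 3443, chromosome 20 LINC genes lower from 2 to 5 and matching pairs from 5 to 48. The lone library of a group is then assumed to vary like the other group. Of the genes named, only those not called in the reported fit changed sign. For some of these, the lowest and highest values with 1 library left out are given. They were -0.19 and 0.30 for MYL2, -0.14 and 0.01 for LINC01876, and -0.31 and 0.08 for LINC01543. For TCF21 they were -0.04 and 0.27, for TSHZ2 -0.34 and 0.50, and for WAC -0.02 and 0.05. The cause of these changes was not tested. Of the 156 called LINC genes, 34 were called the same way in each of the 10 alternative fits, 21 higher and 13 lower. With the replicate number as a block, 101 LINC genes were higher and 55 lower, as without it, and 62 pairs matched. Deviations of same-numbered libraries correlated at 0.0114, so little was shared by number. With 2 libraries per group this is a single correlation, and it cannot tell whether same-numbered libraries were prepared together. LINC genes near 1 CPM rest on about 50 reads a library, where depth limits what can be called.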

Other observations

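Below the minimum of 1 CPM, another 280 LINC genes had enough reads to be tested. Of these, 51 were higher in DKO (18.2%), 24 lower (8.57%) and 205 not called, beside 12.7% higher and 6.66% lower among all 4567 tested genes under that minimum. The 280 had a median log2 fold change of 0.14 and a median SE of 0.35. LINC02029, which overlaps LINC00880 on chromosome 3, was among them, with 27 and 44 reads in DKO and 8 and 9 in WT (2.00 ± 0.36, adjusted p = 1.11e-06 by edgeR), and it lost its call without either WT library. Of all 2266 LINC symbols, 622 had no read in any library. DANCR, OIP5-AS1, LINC-PINT, RMRP, RPPH1 and BANCR were listed at 0 in all 4 libraries as well.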
